A study of Mus musculus with 304 samples.

Results

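The genes described here encode the proteins that dock, prime and fuse vesicles with the plasma membrane and with inner membranes: synaptotagmins, syntaxins, syntaxin-binding proteins, vesicle-associated membrane proteins (VAMPs), the SNAP-25 family, complexins, RIM and Munc13 proteins, synapsins and Rab3 proteins. They were taken by name. Every gene symbol made of Syt, Stx, Stxbp, Vamp, Snap, Cplx, Rims or Unc13 and a following digit or letter from a to d was kept, and Syn1, Syn2, Syn3, Rab3a, Rab3b and Rab3c were added, with Stxbp6 left out. The rule took 73 of the 22800 genes in the count table, and all 73 had at least 1 read in the cells used. Of these, 6 share only the letters: Snapc1 to Snapc5 encode subunits of a complex that starts small nuclear RNA genes, and Snap91 encodes AP180, a clathrin adaptor. The remaining 67 belong to the fusion and release machinery.

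Granule cells of the mouse dentate gyrus were read out by Patch-seq: a patch pipette draws up the cytosol of 1 cell, from which 1 library is made. Day 1 cells (58) came from the injected side 1 day after 70 nl of 5 mM kainic acid, a glutamate receptor agonist, was placed in the hippocampus, and day 14 cells (29, side not labelled) came 14 days after it. Id2 cells (71) and GFP cells (59) were drawn 1 month after injection of AAV, an adeno-associated virus, with Id2, an inhibitor of helix-loop-helix factors, or with GFP. Control cells (31) came from mice without an injection. The labels give no strain, age, sex or viral promoter. No label names an animal, so each group stands as 1 sample, no difference between groups was tested, and no p-value is given. Kainate cells carry K titles, virus cells IDS titles and control cells J, T or plain number titles, and the title numbers of day 1 and day 14 cells do not overlap, so a possible batch and the group cannot be told apart between these sets.

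A SNARE complex forms when VAMP2 on a vesicle zips together with a syntaxin and SNAP-25 on the plasma membrane. Munc13 proteins open the syntaxin, RIM proteins tether vesicles and calcium channels at the active zone, complexins clamp the partly zipped complex and synaptotagmins sense calcium and trigger fusion. Mossy fibre boutons of granule cells hold large pools of vesicles, release at first with low probability and facilitate strongly when fired in trains, and other SNAREs of the same families carry out fusion at endosomes, the Golgi apparatus and lysosomes.

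Reads per cell had medians of 6834546 in day 1 cells, 7615492 in day 14 cells, 3317227 in Id2 cells, 3957794 in GFP cells and 1738610 in control cells. Levels are given as CPM, counts per 1000000 reads, from counts added up over all cells of a group, with exact Poisson intervals at 95% that cover counting error only. The 13 granule cell markers were all detected in every group, with sums of 1851, 1658, 3057, 4179 and 3999 CPM in the same order of groups. The 14 microglia markers summed to 783, 6791, 616, 173 and 3791 CPM, and 7, 20, 11, 1 and 17 cells held at least 1000 CPM of them. P2ry12 had 0 reads in day 1 cells and every other microglia marker was read in each group. Id2 itself was at 1247 CPM in day 1 cells, 422 in day 14 cells, 37369 in Id2 cells, 93.2 in GFP cells and 127.9 in control cells, and the lowest Id2 cell with 1446 CPM lay above the highest GFP cell with 575 CPM. The 10 interneuron markers summed to 735 to 1348 CPM over the 5 groups. Those at 0 reads were Sst, Vip and Lhx6 at day 1, and these with Pvalb and Dlx1 at day 14. Gad2 was at 0 reads in Id2 cells, and Vip and Lhx6 in control cells. All other interneuron markers were read in each group, and GFP cells had reads of every one.

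The family as a whole took a nearly equal share of the RNA in all groups: 1.23% of summed reads in day 1 cells, 1.20% in day 14 cells, 1.08% in Id2 cells, 1.30% in GFP cells and 1.13% in control cells. The spread between cells was wider than these differences, since the share in single day 1 cells ranged from 0.361% to 1.96% with a median of 1.17%, against 0.583% to 1.90% with a median of 1.06% in control cells. With each cell thinned to 100000 reads, the median cell had reads of 29.5 members at day 1, 30 at day 14, 21 with Id2, 23 with GFP and 26 in control cells. A member counted as measured when reads were found in no fewer than 20% of cells in either compared group and its level was 5 CPM or more in either. On that rule 46 of the 73 were measured in all 5 comparisons, 58 in at least 1 and 15 in none. The 15 were Cplx3, Cplx4, Rims3, Snap29, Stx11, Stx19, Stxbp4, Syt2, Syt6, Syt8, Syt9, Syt15, Unc13c, Unc13d and Vamp5, which include the retinal complexins and Syt2, a fast calcium sensor of other neurons.

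RPKM, which divides CPM by the exon length in kilobases, put members on 1 scale, for the 71 of 73 with a gene model in GENCODE M21. In control cells Snap25 led with 287 RPKM, and among the next were Vamp2 with 238, Snap47 with 189, Rab3a with 184, Syn2 with 140, Syt11 with 109.99, Cplx1 with 100.9, Syn1 with 98.2 and Syt4 with 93.3 RPKM. Syt1, the calcium sensor of fast release, stood at 53.6 RPKM and was 15th. The order at the top differed between groups. At day 1 Syt4 came first with 325 RPKM, next to Snap25 with 321 RPKM. At day 14 and with Id2 it was Rab3a, with 356 and 289 RPKM, next to Snap25 with 350.4 and 287 RPKM, while Snap25 led in GFP cells with 409.8 RPKM.

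Summed by role, synaptotagmins took 3107 CPM in day 1 cells, 1983 in day 14 cells, 2674 in Id2 cells, 3065 in GFP cells and 2254 in control cells. Active zone and priming genes took 412, 319, 222, 238 and 298 CPM in the same order, complexins 334, 554, 293, 403 and 359 CPM, and synapsins with Rab3 genes 1199, 1641, 1365, 1964 and 1760 CPM.

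Of the core release genes, Snap25, Vamp2 and Syt1 lay close to their control level after kainate. Others lay further away, among them Rims1 at day 1, Syn2 at both times, and Stx1a, Cplx1 and Cplx2 at day 14. Snap25 (chromosome 2, 136713453 to 136782428, GRCm38, plus strand), a plasma membrane SNARE, stood at 2182 CPM in day 1 cells (2178 to 2186), 2380 in day 14 cells, 1952 in Id2 cells, 2783 in GFP cells and 1948 in control cells (1938 to 1959). Its lowest, median and highest cells had 0.234, 1949 and 4971 CPM at day 1, 0.224, 2300 and 4732 CPM at day 14, and 5.24, 1912 and 4314 CPM in control cells. Every day 1, day 14, GFP and control cell and 98.6% of Id2 cells had a read, and the ranges overlapped over nearly their whole length. Vamp2 (chromosome 11, 69088490 to 69092384, plus strand), the vesicle SNARE, was at 859 CPM in day 1 cells, 940 in day 14 cells, 730 in Id2 cells, 790 in GFP cells and 907 in control cells. The median Vamp2 cell held 793, 882, 742, 683 and 874 CPM in that order, so no group stood apart. Syt1 (chromosome 10, 108497650 to 109010982, minus strand) was at 449, 419, 486, 506 and 447 CPM. For these 3 genes the log2 ratio of (CPM + 1) lay between -0.09 and 0.29 in the comparisons of kainate cells with control cells. Unc13a, the main neuronal Munc13, had log2 ratios of 0.72 at day 1 and -0.09 at day 14.

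**Figure D1:**
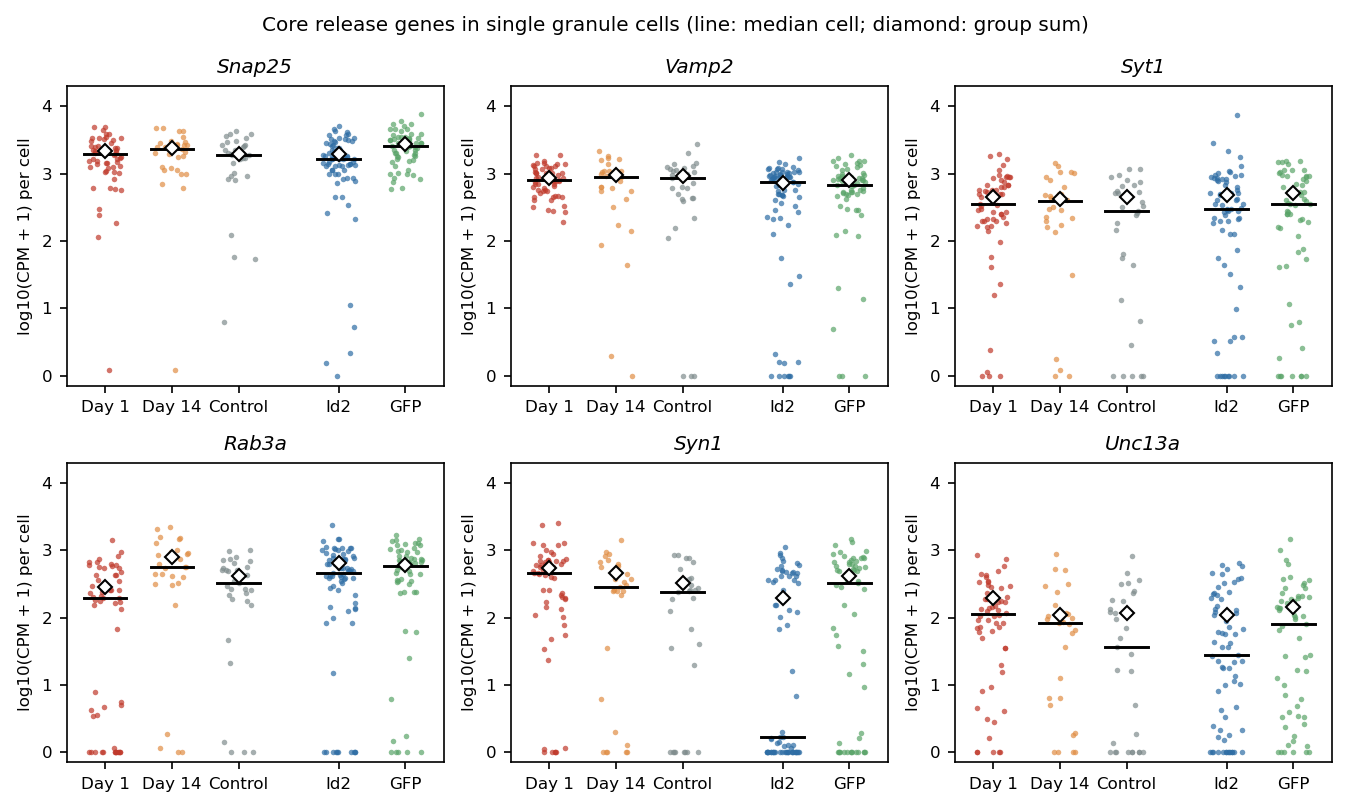
Levels of 6 core release genes (Snap25, Vamp2, Syt1, Rab3a, Syn1 and Unc13a) in single cells, on a log10 axis of CPM + 1, with 1 point per cell, a line at the median cell and a diamond at the level of the summed counts, for day 1, day 14, control, Id2 and GFP cells. Snap25 and Vamp2 points overlap in all 5 groups, while the median Unc13a cell is at 112.6 CPM at day 1, 83.3 CPM at day 14 and 35.1 CPM in control cells.

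At 1 day after kainate, single members lay far from their control level in both directions while the family's median did not. Of 54 measured members, 11 were at least 2-fold higher and 8 at least 2-fold lower in day 1 cells than in control cells, which is 20.4% and 14.8% of them. Among all 9079 genes measured, 23.2% were at least 2-fold higher and 15.2% at least 2-fold lower, so the members' shares were near the background. The median log2 ratio was 0.18 for the members and 0.17 for all measured genes. By role, 4 of 12 synaptotagmins were higher and 2 lower, 2 of 5 active zone and priming genes were higher and 1 lower, 2 of 5 synapsin and Rab3 genes were higher and 1 lower, and 2 of 12 syntaxins were higher and none lower. Of the 5 VAMPs, 1 was higher and 2 were lower.

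At 14 days the counts were 11 higher and 7 lower of 54 measured members, or 20.4% and 12.96%, beside 23.8% and 15.8% of all 9469 genes measured. The median log2 ratio was 0.07 for the members and 0.14 for all genes. Rab3c, Stx3, Stx17, Syt12 and Syt14 were at least 2-fold higher, and Snap23, Stxbp5l, Syn2 and Syt16 at least 2-fold lower, at both times. Stx17 and Syt12 stayed at least 2-fold higher in every alternative at both times. Each of the others dropped below 2-fold or changed sign in at least 1 alternative. Changes of the filter on low values are not among these alternatives. Neither Stx17 nor Syt12 passes the stricter filter, which asks for reads in 50% of cells. The same control cells serve both comparisons, so this overlap is no separate evidence. In the direct comparison of day 14 with day 1 cells, 11 members were at least 2-fold higher and 9 at least 2-fold lower of 57 measured, beside 17.4% and 16.6% of all 9823 genes. Of the 12 synaptotagmins measured there 1 was higher and 3 were lower, and of the 13 syntaxins 3 were higher and 1 was lower.

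**Figure D2:**
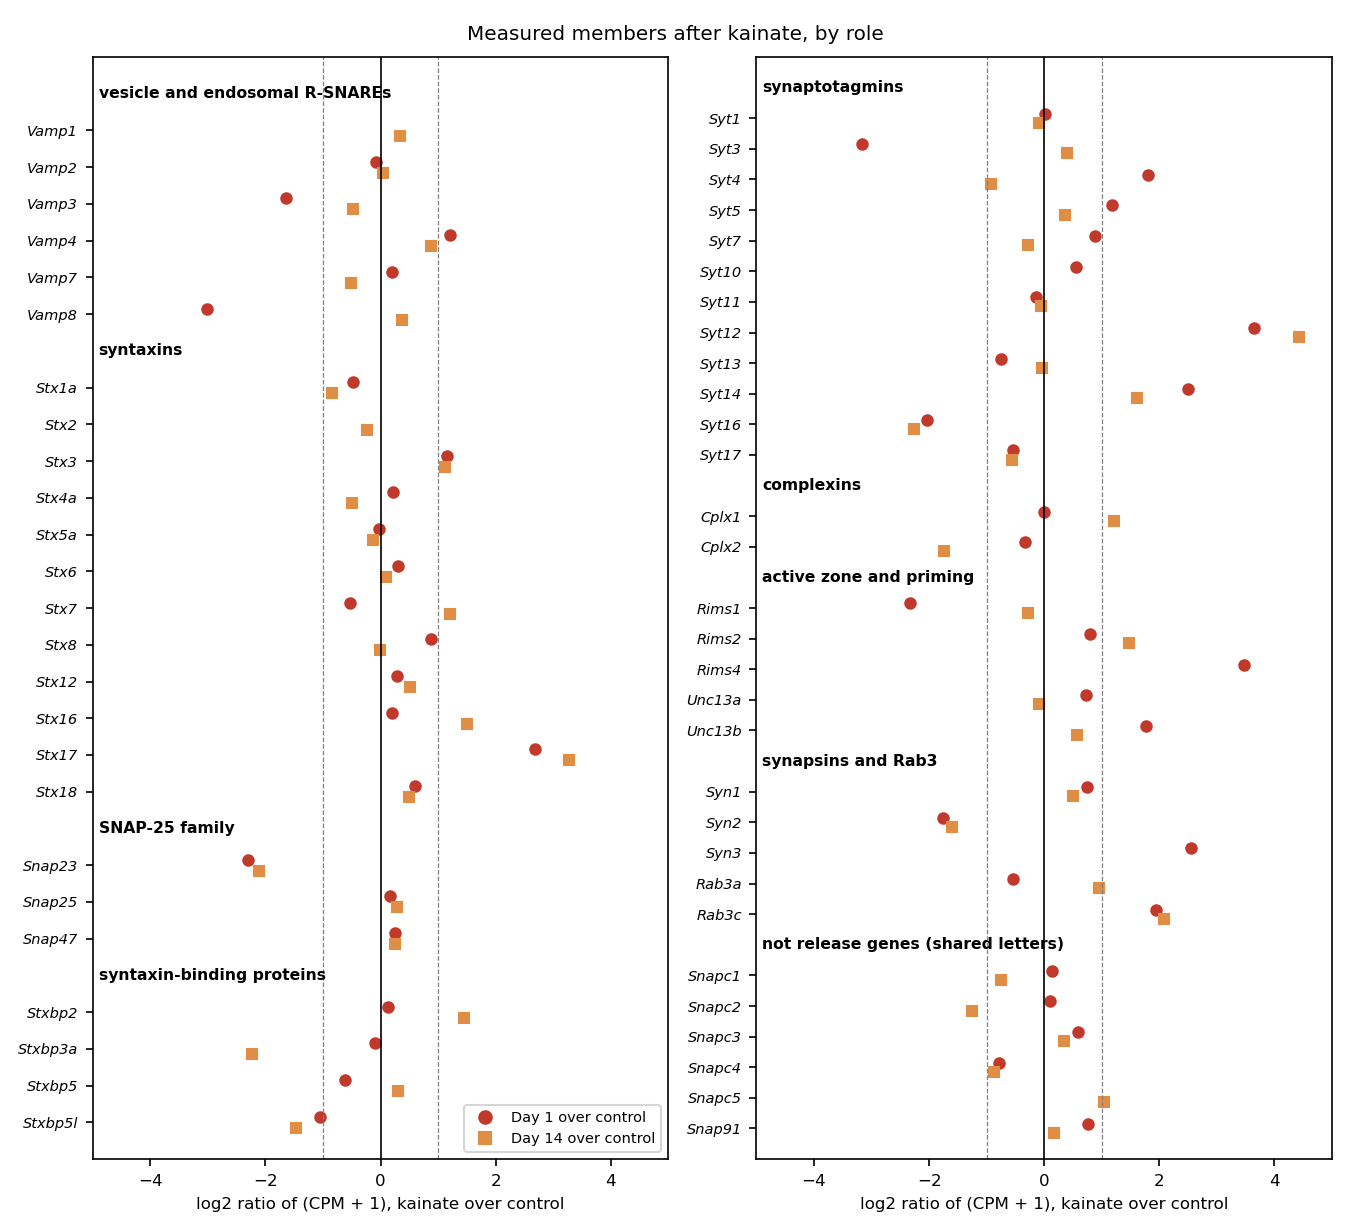
Log2 ratios of (CPM + 1) of members measured after kainate, by role, with circles for day 1 over control and squares for day 14 over control, and dashed lines at 2-fold in either direction. Syt3 and Syt4 lie on opposite sides of 0 at the 2 times, Syt12, Stx17 and Rab3c lie above 1 at both, and Syn2 lies below -1 at both.

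Synaptotagmins held some of the widest differences. Syt3 (chromosome 7, 44384102 to 44400187, plus strand), a high-affinity calcium sensor that in rodents lies mostly on the plasma membrane, had its lowest level at day 1. It had lowest, median and highest cells at 0, 0 and 296 CPM at day 1, at 0, 6.94 and 1883 CPM at day 14, and at 0, 0 and 1186 CPM in control cells. No day 1 cell reached 300 CPM, although the ranges overlap at the low end. Its summed level was 12.1 CPM (11.8 to 12.4) in day 1 cells, 152 CPM (151 to 154) in day 14 cells and 115.6 CPM (113.1 to 118.2) in control cells, so that day 1 was 9.58-fold below control and day 14 was 12.6-fold above day 1. Reads of Syt3 were found in 25.9% of day 1 cells (Clopper-Pearson 95% bounds 15.3% to 39.04%), 58.6% of day 14 cells (38.9% to 76.5%) and 41.9% of control cells (24.5% to 60.9%), and in 17.2%, 51.7% and 37.9% after thinning. The day 1 ratio of -3.16 stayed between -3.35 and -2.81 in 15 alternatives. The 250 bases before its RefSeq start (GRCm38.p6, chr7:44383876-44384125, plus strand) are shown because the call held in these 15 alternatives, which leave out filter changes. Capitals mark matches to CANNTG, the E-box that helix-loop-helix factors bind, written 5′ to 3′ on the strand of the gene.
Syt3: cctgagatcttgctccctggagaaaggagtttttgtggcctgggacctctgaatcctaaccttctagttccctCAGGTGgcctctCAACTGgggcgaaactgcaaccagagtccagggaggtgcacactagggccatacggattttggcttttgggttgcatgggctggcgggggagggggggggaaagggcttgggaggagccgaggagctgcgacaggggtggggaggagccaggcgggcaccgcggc
This window has 2 E-boxes and no match to TGACGTCA, a cyclic AMP response element, or to TGANTCA, an AP-1 element, on either strand. Among 32851 RefSeq windows of 250 bases, 66.2% have an E-box, 6.75% the AP-1 letters and 1.55% the response element letters, so an E-box is common, and a window without a match says nothing about the factor.

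Syt4 (chromosome 18, 31437808 to 31447406, minus strand), an activity-regulated synaptotagmin of neurons that binds calcium weakly and sits on dense-core and trafficking vesicles, was highest at day 1 and lowest at day 14. Its cells had lowest, median and highest values of 0, 781 and 10084 CPM at day 1, 0, 113.5 and 747 CPM at day 14, and 0, 305 and 2423 CPM in control cells. The day 1 range reached above that of the other groups, and the lower parts overlapped. Summed, Syt4 stood at 1264 CPM (1261 to 1268) in day 1 cells, 191 CPM (189 to 193) in day 14 cells and 363 CPM (359 to 368) in control cells. Day 1 thus stood 3.48-fold above control, a log2 ratio of 1.80 that ranged from 1.63 to 2.19 over 15 alternative settings. Day 14 stood 6.62-fold below day 1. At day 14 the log2 ratio over control cells was -0.92. The antisense gene Gm26658 covers 14.5% of its exon bases, and since the counting strand is not given, reads there cannot be told apart.

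Syt12, a synaptotagmin that does not bind calcium and is phosphorylated by protein kinase A, was at 32.02 CPM (31.5 to 32.5) in day 1 cells, 55.9 CPM (55.0 to 56.8) in day 14 cells and 1.64 CPM (1.35 to 1.97) in control cells. All 110 control reads came from 1 cell, and reads were present in 24.1% of day 1 cells, 34.5% of day 14 cells and 3.23% of control cells (1 of 31, 0.0816% to 16.7%). Its log2 ratios were 3.65 at day 1 and 4.43 at day 14 and stayed at 1.59 or above in all alternatives. The median cell was at 0 in all groups, so the higher sums lie in a minority of cells, the highest with 850 CPM at day 1, 597 CPM at day 14 and 46.7 CPM in control cells. The gene A930001C03Rik on the other strand covers 17.2% of its exon bases.

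Other synaptotagmins differed less or less steadily. Syt5 was at 443 CPM at day 1, 251 at day 14 and 195 in control cells, with median cells of 284, 165 and 150 CPM. The day 1 log2 ratio of 1.18 was 0.04 with GFP cells in place of the controls. Syt7, the slow sensor linked to facilitation, was at 122.6, 54.2 and 65.7 CPM in the same order, with log2 ratios of 0.89 and -0.27. Syt10, a sensor for insulin-like growth factor release in the mouse olfactory bulb, was at 27.7 CPM at day 1, 4.42 at day 14 and 18.6 in control cells, and day 14 was 6.28-fold below day 1. Syt14, which lacks calcium binding, was at 20.2, 10.4 and 2.72 CPM, but at 56.9 CPM in GFP cells. Syt16, which also lacks it, was at 56.0, 47.8 and 234 CPM, and its log2 ratios of -2.04 at day 1 and -2.27 at day 14 were -0.33 and 0.41 without the cells rich in microglia markers. Syt11 at 519, 551 and 572 CPM, and Syt13 at 125.8, 208 and 213 CPM, lay within 2-fold of control at both times.

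Complexins shifted in their balance at 14 days. Cplx2 (chromosome 13, 54371349 to 54383917, plus strand) had lowest, median and highest cells at 0, 47.9 and 394 CPM at day 1, at 0, 22.6 and 169 CPM at day 14, and at 0, 77.3 and 1017 CPM in control cells. Its sum was 109.6 CPM (108.7 to 110.6) in day 1 cells, 40.5 CPM (39.7 to 41.3) in day 14 cells and 138 CPM (136 to 141) in control cells, 3.42-fold lower at day 14 than in control cells. Cplx1 (chromosome 5, 108518554 to 108550024, minus strand) was at 220 CPM (219 to 222), 514 CPM (511 to 517) and 221 CPM (217 to 224) in the same order, 2.33-fold higher at day 14, with median cells of 88.9, 335 and 209 CPM. Cplx1 made up 66.8% of the reads of the pair in day 1 cells, 92.7% in day 14 cells, 59.1% in Id2 cells, 57.1% in GFP cells and 61.5% in control cells. Among single cells with a read of either gene, Cplx1 held more than 50% in 32 of 54 day 1 cells, 24 of 28 day 14 cells and 15 of 28 control cells. The share is not corrected for length and is compared between groups only. The Cplx2 ratio of -1.75 at day 14 ranged from -2.43 to -1.54 in 15 alternatives, while the Cplx1 ratio of 1.21 was below 1 in 5 of them, down to 0.56 in the table of scaled values. The 250 bases before the RefSeq start of Cplx2 (GRCm38.p6, chr13:54302306-54302555, plus strand) are shown for the same reason as for Syt3. This window lies far upstream of the GENCODE M21 start at 54371349 and is not next to the gene model used for length.
Cplx2: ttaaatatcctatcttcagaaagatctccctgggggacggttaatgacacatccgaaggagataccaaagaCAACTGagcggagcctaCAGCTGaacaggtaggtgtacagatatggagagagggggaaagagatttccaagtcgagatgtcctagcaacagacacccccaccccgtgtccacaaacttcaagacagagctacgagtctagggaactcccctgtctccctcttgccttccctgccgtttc
It has 2 E-boxes in capitals and neither of the other motifs.

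**Figure D3:**
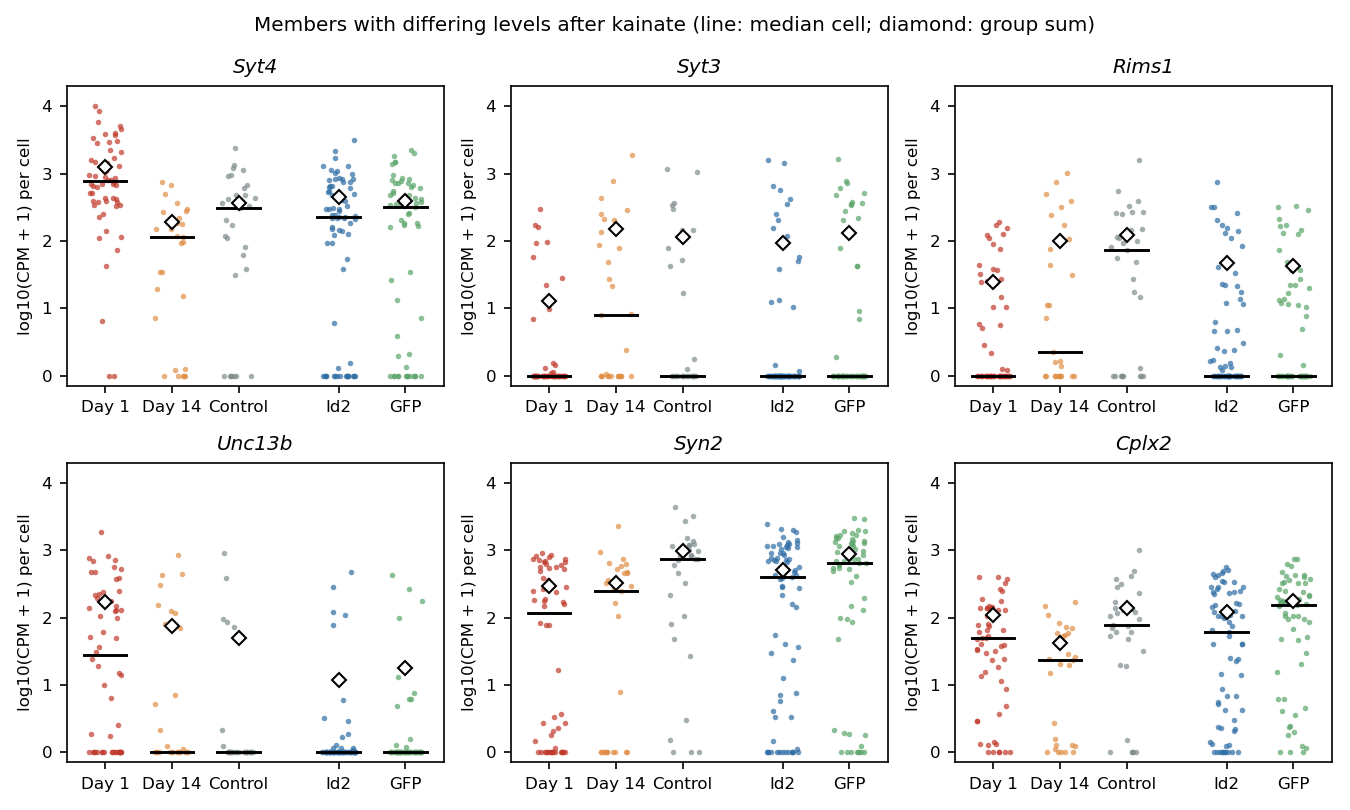
Levels of 6 members that differed after kainate, on a log10 axis of CPM + 1, with 1 point per cell, a line at the median cell and a diamond at the level of the summed counts, for day 1, day 14, control, Id2 and GFP cells. The Syt4 median is 781 CPM at day 1 against 305 CPM in control cells, and for Syt3 and Unc13b many cells lie at 0 in every group.

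Of 5 measured active zone and priming genes, 2 were at least 2-fold higher and 1 lower at day 1, beside 23.2% and 15.2% of all measured genes. Of 4 measured at day 14, 1 was higher and 0 lower, beside 23.8% and 15.8%. So few genes do not set this role apart from all genes. Rims1 (chromosome 1, 22286251 to 22805994, minus strand), the main RIM scaffold, had lowest, median and highest cells at 0, 0 and 190 CPM at day 1, at 0, 1.29 and 1014 CPM at day 14, and at 0, 73.01 and 1600 CPM in control cells. It summed to 23.4 CPM (22.9 to 23.8) in day 1 cells, 99.9 CPM (98.7 to 101.2) in day 14 cells and 121.8 CPM (119.1 to 124.4) in control cells, 5.21-fold lower at day 1 than in control cells and 4.28-fold higher at day 14 than at day 1. GFP cells held only 41.9 CPM, so the day 1 ratio of -2.33 was -0.82 with GFP cells in place of the controls. Unc13b (chromosome 4, 43058953 to 43264871, plus strand), which encodes Munc13-2, a priming factor known from hippocampal mossy fibres, was at 172 CPM (170 to 173) in day 1 cells, 73.7 CPM in day 14 cells and 49.5 CPM (47.8 to 51.2) in control cells. Its lowest, median and highest cells had 0, 26.6 and 1862 CPM at day 1, 0, 0 and 848 CPM at day 14, and 0, 0 and 893 CPM in control cells. A single control cell held 67.5% of the control reads, and without the cells rich in microglia markers the day 1 log2 ratio was 0.74 in place of 1.77.

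Rims4, a short RIM with only the last C2 domain, had no read in any of 31 control cells (0%, up to 11.2%) and stood at 10.1 CPM (9.77 to 10.3) in day 1 cells, where 25.9% of cells had a read, and at 4.91 CPM in day 14 cells, where 13.8% had a read. With 3 counts assumed for the control group in place of 0, day 1 was 225-fold higher. That fold is set by the assumed count and is not a lower bound. Rims4 was not among the measured members for day 14 over control. After thinning, 13.8% of cells had a read at each time and 0% of control cells. In GFP cells it was at 0.0947 CPM. Rims2, a second RIM scaffold, was at 13.8 CPM at day 1, 22.4 at day 14 and 7.49 in control cells, but at 30.2 CPM in GFP cells, and its day 14 ratio of 1.47 was -0.41 against these. Rims1 thus took 49.5% of RIM family reads in day 1 cells, 78.5% in day 14 cells, 57.1% in Id2 cells, 57.8% in GFP cells and 94.2% in control cells. Unc13b took 47.1%, 40.3%, 8.14%, 10.3% and 29.7% of the Unc13a to Unc13c reads in the same order of groups.

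Among proteins that hold and tag vesicles, Syn2 (chromosome 6, 115134902 to 115282006, plus strand), a synapsin that clusters the reserve pool, was lower after kainate. Lowest, median and highest cells had 0, 114.7 and 912 CPM at day 1, 0, 244 and 2279 CPM at day 14, and 0, 747 and 4395 CPM in control cells. No day 1 cell exceeded 912 CPM, yet the ranges overlapped. The sums were 291 CPM (290 to 293) in day 1 cells, 322 CPM (320 to 325) in day 14 cells and 985 CPM (978 to 993) in control cells, 3.38-fold lower at day 1 and 3.06-fold lower at day 14. The day 1 ratio of -1.75 stayed between -2.35 and -1.37 in 15 alternatives, and the day 14 ratio of -1.61 was -0.98 without the cells rich in microglia markers. Syn1 was at 545, 457 and 324 CPM in day 1, day 14 and control cells, with log2 ratios of 0.75 and 0.50. Syn1 accordingly made up 63.2% of synapsin reads in day 1 cells, 58.3% in day 14 cells, 26.8% in Id2 cells, 32.2% in GFP cells and 24.7% in control cells, against 33.8%, 41.1%, 71.6%, 66.8% and 75.1% for Syn2. More than 50% of a cell's synapsin reads were Syn1 in 39 of 56 day 1 cells, 15 of 25 day 14 cells, 16 of 64 Id2 cells, 16 of 56 GFP cells and 6 of 30 control cells. Syn3, the developmental synapsin, was at 25.6 CPM at day 1, 4.51 at day 14 and 3.53 in control cells. Its day 1 ratio of 2.55 became -0.25 once cells labelled as failing quality control were added, and it shares 14.1% of its exon bases with Timp3. The 250 bases before the first of 2 RefSeq starts of Syn2 (GRCm38.p6, chr6:115134652-115134901, plus strand) follow, shown because its day 1 difference held in every alternative.
Syn2: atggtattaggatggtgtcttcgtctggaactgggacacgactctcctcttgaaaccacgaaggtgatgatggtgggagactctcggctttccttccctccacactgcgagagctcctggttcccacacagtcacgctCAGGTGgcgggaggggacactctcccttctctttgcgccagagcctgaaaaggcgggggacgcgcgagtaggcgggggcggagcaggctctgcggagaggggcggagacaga
It has 1 E-box in capitals and neither of the other motifs.

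**Figure D4:**
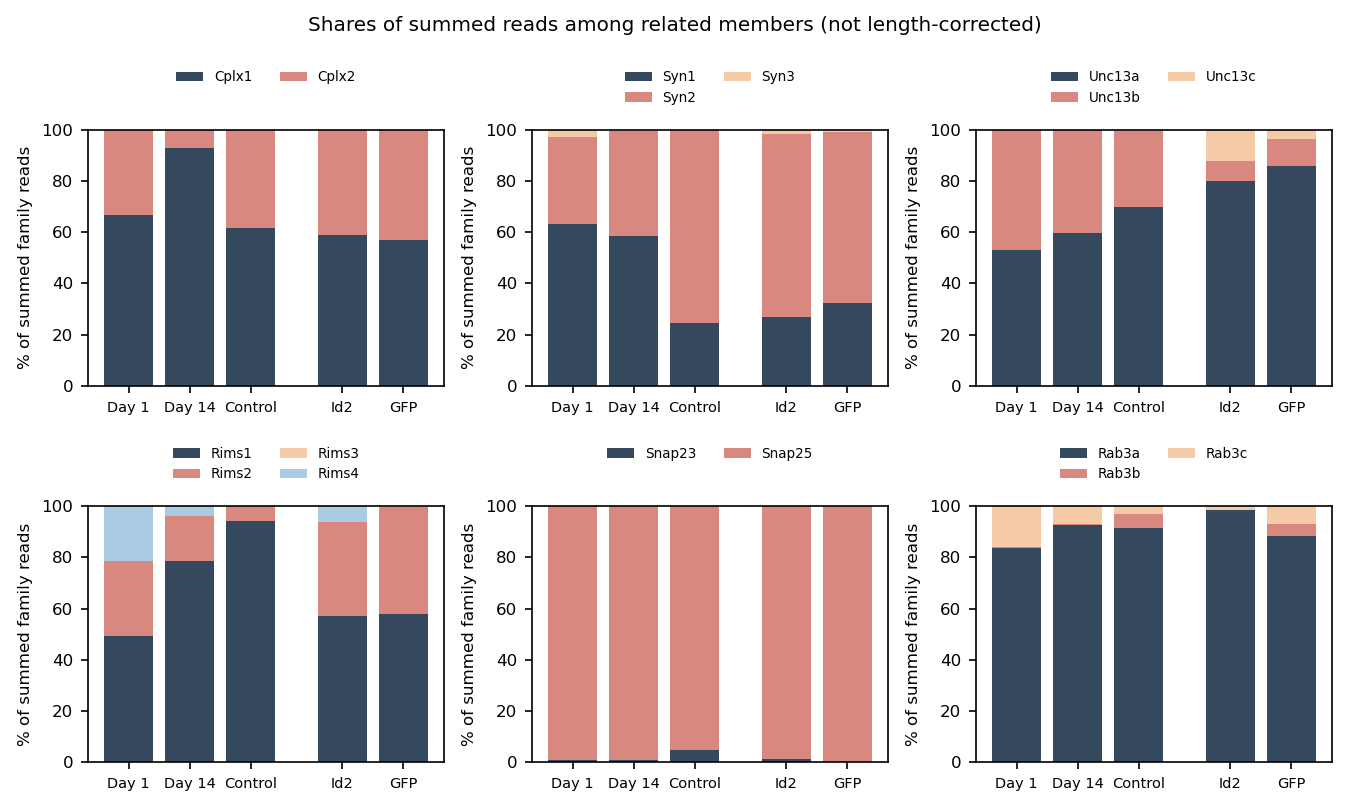
Share of summed reads taken by each member of 6 groups of related genes in day 1, day 14, control, Id2 and GFP cells, as stacked bars from 0 to 100% that are not corrected for length. Cplx1 reaches 92.7% at day 14, Syn1 stands at 63.2% and 58.3% after kainate against 24.7% in control cells, and Snap25 stands above 95% in every group.

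Rab3a, the main vesicle GTPase of neurons, had lowest, median and highest cells at 0, 194 and 1414 CPM at day 1, at 0, 559 and 2227 CPM at day 14, and at 0, 328 and 1012 CPM in control cells. It summed to 283 CPM (281 to 284) in day 1 cells, 793 CPM (789 to 796) in day 14 cells and 409.7 CPM (405 to 415) in control cells, with log2 ratios of -0.53 and 0.95 to control, and day 14 stood 2.80-fold above day 1. Rab3c, a close relative, was at 54.4, 60.3 and 13.5 CPM, 4.04-fold and 4.48-fold above control cells, with a read in 27.6%, 48.3% and 19.4% of cells. GFP cells held 46.1 CPM of it, and against these the ratios were 0.24 and 0.38, and without the cells rich in microglia markers the ratios to control cells were 0.78 and 0.06.

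Stx1a, a plasma membrane syntaxin of synaptic release, was at 58.5 CPM in day 1 cells, 44.96 in day 14 cells and 81.5 in control cells, with log2 ratios of -0.47 and -0.84. Stx3, a syntaxin of apical membranes and of dendritic receptor delivery, was at 233, 226 and 103.9 CPM, and its ratios of 1.16 and 1.12 dropped below 1 in 6 and 5 of 15 alternatives. Among syntaxins of endosomes and the Golgi apparatus, Stx7 was at 106.97 CPM at day 1, 362 at day 14 and 156 in control cells, 3.39-fold higher at day 14 than at day 1, and Stx16 at 27.9, 70.7 and 24.2 CPM. Stx6, Stx5a and Stx12 lay within 2-fold of control at both times.

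Stx17 (chromosome 4, 48124915 to 48186507, plus strand), the syntaxin that fuses autophagosomes with lysosomes, stood at 29.9 CPM (29.4 to 30.4) in day 1 cells, 45.4 CPM (44.6 to 46.3) in day 14 cells and 3.80 CPM (3.34 to 4.29) in control cells. The folds over control were 7.88 and 11.97, and the log2 ratios of 2.69 and 3.28 stayed at 1.31 or above in every alternative. It had a read in 25.9% of day 1 cells (15.3% to 39.04%), 24.1% of day 14 cells (10.3% to 43.5%) and 12.9% of control cells (3.63% to 29.8%), and in 20.7%, 20.7% and 13.8% after thinning. The median cell was at 0 in each group and the highest at 459, 1521 and 107.4 CPM, with 54.0% of the day 14 reads in 1 cell. The 250 bases before its RefSeq start (GRCm38.p6, chr4:48124669-48124918, plus strand) follow.
Stx17: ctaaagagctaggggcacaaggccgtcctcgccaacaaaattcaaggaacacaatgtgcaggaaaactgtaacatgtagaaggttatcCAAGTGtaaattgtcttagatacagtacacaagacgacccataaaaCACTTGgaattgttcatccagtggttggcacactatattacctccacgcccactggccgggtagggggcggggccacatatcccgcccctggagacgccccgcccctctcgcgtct
It has 2 E-boxes in capitals and neither of the other motifs.

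Of the syntaxin-binding proteins, Stxbp2 (chromosome 8, 3630955 to 3643644, plus strand), or Munc18-2, which serves granule release in blood cells and epithelia, was higher at day 14. Its lowest, median and highest cells had 0, 67.3 and 893 CPM at day 1, 0, 312 and 2518 CPM at day 14, and 0, 6.53 and 1174 CPM in control cells. The day 14 median lay far above the others, while each group had cells at 0 and the ranges overlapped. Summed, it was at 167 CPM (165 to 168) in day 1 cells, 421 CPM (418 to 423) in day 14 cells and 153 CPM (150 to 156) in control cells, 2.75-fold higher than control at day 14, and the log2 ratio of 1.45 ranged from 1.21 to 1.79 in 15 alternatives. Leaving out cells rich in microglia markers, Stxbp2 was at 649.8 CPM over 9 day 14 cells and 279.9 CPM over 14 control cells. Stxbp3a, or Munc18-3, was at 75.4, 16.4 and 80.5 CPM in day 1, day 14 and control cells, 4.90-fold lower at day 14 than in control cells, a ratio of -2.23 that was -0.86 with GFP cells in place of the controls. Stxbp5l, a tomosyn that blocks SNARE assembly, was at 45.3, 33.8 and 95.4 CPM, and its ratios of -1.06 and -1.47 were -0.23 and -0.77 without the cells rich in microglia markers. Below is the RefSeq window of Stxbp2 (GRCm38.p6, chr8:3630859-3631108, plus strand), in which the GENCODE M21 start also lies.
Stxbp2: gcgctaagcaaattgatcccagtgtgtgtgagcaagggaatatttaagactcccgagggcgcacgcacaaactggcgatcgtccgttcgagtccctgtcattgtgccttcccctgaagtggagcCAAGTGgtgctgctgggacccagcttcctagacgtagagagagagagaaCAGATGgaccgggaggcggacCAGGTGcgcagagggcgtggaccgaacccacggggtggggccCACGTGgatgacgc
It has 4 E-boxes in capitals, more than the other windows shown, and neither of the other motifs. Filter changes aside, 8 members had a 2-fold difference from control that held in every alternative at day 1 or day 14. Of these, Rims4, Syt12 and Syt4 are the ones with no sequence given.

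Vamp8, Snap23 and Vamp3, SNAREs that many other cell types use, had a read in 38.7%, 32.3% and 41.9% of control cells. Vamp8, an endosomal SNARE abundant in microglia and macrophages, was at 6.75 CPM in day 1 cells, 80.6 CPM in day 14 cells and 61.7 CPM in control cells, with a read in 13.8%, 37.9% and 38.7% of cells. The microglia marker list summed to 783, 6791 and 3791 CPM in the same groups, and across the 29 day 14 cells Vamp8 followed that sum with a Spearman rho of 0.70, as a description. Without the cells rich in microglia markers Vamp8 was at 2.49 CPM, 0 CPM and 23.3 CPM, and the day 14 over day 1 ratio of 3.40 became -1.80. Snap23, the SNAP-25 relative of non-neuronal cells, was at 19.3, 22.1 and 98.5 CPM, and 1 control cell held 68.9% of its control reads. Its ratios of -2.30 and -2.10 were 0.26 and 0.45 against J-titled controls, and the day 1 ratio was -0.90 without the cells rich in microglia markers. Vamp3, or cellubrevin, was at 33.8, 76.6 and 107.5 CPM. Vamp4, a Golgi and endosomal SNARE, was at 146, 116.3 and 62.6 CPM.

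Several members were read in most groups and lay within 2-fold of control after kainate. Snap47, a SNARE without a membrane anchor, was at 598 CPM in day 1 cells, 597 in day 14 cells and 502 in control cells, though its median control cell had 2.72 CPM and its highest 2649 CPM, and Jmjd4 overlaps 11.6% of its exon bases. Stx8, an endosomal syntaxin, was at 53.9, 28.4 and 28.8 CPM, and Stxbp5, tomosyn-1, at 102.2, 194 and 157 CPM. Vamp7, a SNARE of lysosomes and outgrowing neurites, was at 88.9, 53.6 and 77.4 CPM. Of the genes that share only letters with the family, Snap91 was at 391.7 CPM in day 1 cells, 259 in day 14 cells and 229.6 in control cells, and Snapc2 at 105.7, 41.1 and 98.9 CPM, 2.41-fold lower than control at day 14. Vamp1 and Stx2, a vesicle and a plasma membrane SNARE, were at 30.5 and 59.9 CPM in day 14 cells, 4.38-fold and 3.23-fold above day 1 cells with 6.97 and 18.5 CPM, and a single control cell held 91.1% of the control reads of Stx2.

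Outside the name rule, 37 of 52 other release genes were measured at day 1, of which 3 were at least 2-fold higher and 9 at least 2-fold lower, beside 23.2% and 15.2% of all measured genes, with a median log2 ratio of -0.36 against 0.17 for all measured genes. At day 14 the counts were 5 higher and 4 lower of 38, beside 23.8% and 15.8% of all measured genes, with a median of -0.04. Lin7b, an active zone adaptor, was at 17.99 CPM in day 1 cells, 172 in day 14 cells and 93.7 in control cells, and Sncb, beta-synuclein, at 2.33, 39.9 and 28.3 CPM. Synpr, synaptoporin, a vesicle protein of mossy fibre terminals, was at 241, 378 and 835 CPM. Apba2, an adaptor of synaptic vesicle release, was higher at both times, with 209 and 187 CPM against 56.0 CPM. Erc2, an active zone scaffold, was at 51.4 CPM in day 14 cells, against 326 CPM in day 1 cells and 276 CPM in control cells. Of 30 genes that retrieve vesicles, 27 were measured at day 1 with 5 higher and 7 lower and a median of -0.30, and 28 at day 14 with 4 higher and 4 lower and a median of -0.15. Cltb and Ap2m1, a clathrin light chain and an AP2 adaptor subunit, were at 938 and 916 CPM in day 1 cells, while control cells held 190 and 290 CPM. Dnm1, the dynamin that cuts vesicles free, was at 154 CPM in day 1 cells and 436 CPM in control cells, and Amph, its partner amphiphysin, at 47.02 CPM in day 14 cells and 144 CPM in control cells.

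Between the virus groups the members' shares at 2-fold lay below those of all genes. Of 48 measured members, none was at least 2-fold higher and 4 (8.33%) were at least 2-fold lower in Id2 cells than in GFP cells. Among all 7846 genes measured the shares were 10.2% and 12.6%. Of the members, 14 lay above 0 and 34 below, with no such count given for all genes. The median log2 ratio was -0.22 for the members and -0.10 for all genes. Snap25 stood at 1952 CPM (1947 to 1957) in Id2 cells and 2783 CPM (2776 to 2790) in GFP cells, a ratio of -0.51 that stayed between -0.62 and -0.37 over 14 alternatives, with median cells of 1642 and 2600 CPM. Vamp2, Syt1 and Rab3a lay within 0.11 of 0 on the log2 scale.

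Synapsin and Rab3 genes made up 3 of the 4. Syn1 had lowest, median and highest cells at 0, 0.689 and 1099 CPM with Id2 and at 0, 322 and 1462 CPM with GFP. Its sum was 191 CPM (189 to 193) in Id2 cells and 414 CPM (412 to 417) in GFP cells, 2.17-fold lower, and the ratio of -1.11 was -0.96 in cells with titles IDS up to 95 and -1.58 in those above 95. Rab3c was at 10.5 CPM (10.1 to 10.9) in Id2 cells and 46.1 CPM (45.2 to 46.96) in GFP cells, with a read in 16.9% (9.05% to 27.7%) and 32.2% (20.6% to 45.6%) of cells and ratios of -1.77 and -2.82 in the 2 title sets. Rab3b, a Rab3 of secretory cells, was at 0.113 CPM (0.0761 to 0.161) in Id2 cells and 32.9 CPM (32.1 to 33.6) in GFP cells. Reads of Rab3b were in 4.23% of Id2 cells (0.880% to 11.9%) and 23.7% of GFP cells (13.6% to 36.6%), its median cell was at 0 in both, and the ratio was -5.25 with titles up to 95 and -1.05 with titles above 95. With titles above 95 its levels were 0.128 CPM in Id2 cells and 1.34 CPM in GFP cells. Both lie under the limit of 5 CPM, so that ratio depends on the added 1 CPM. The antisense gene 8030443G20Rik covers 9.0% of its exon bases. Syt13, an atypical synaptotagmin, was at 158 CPM in Id2 cells and 321 CPM in GFP cells, with median cells of 0 and 92.5 CPM and ratios of -1.04 and -0.996 in the title sets. Depth and the rest of the cells' makeup moved too, with medians of 3317227 and 3957794 reads and microglia markers at 616 and 173 CPM. Without the cells rich in microglia markers, Syn1 was at 214 CPM in Id2 cells and 413 CPM in GFP cells. Syt13 was then at 166 and 325 CPM, so both genes lay less than 2-fold apart. Rab3c was at 12.1 and 46.6 CPM and Rab3b at 0.122 and 25.97 CPM. The part of depth and of these cells in the differences was not tested.

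**Figure D5:**
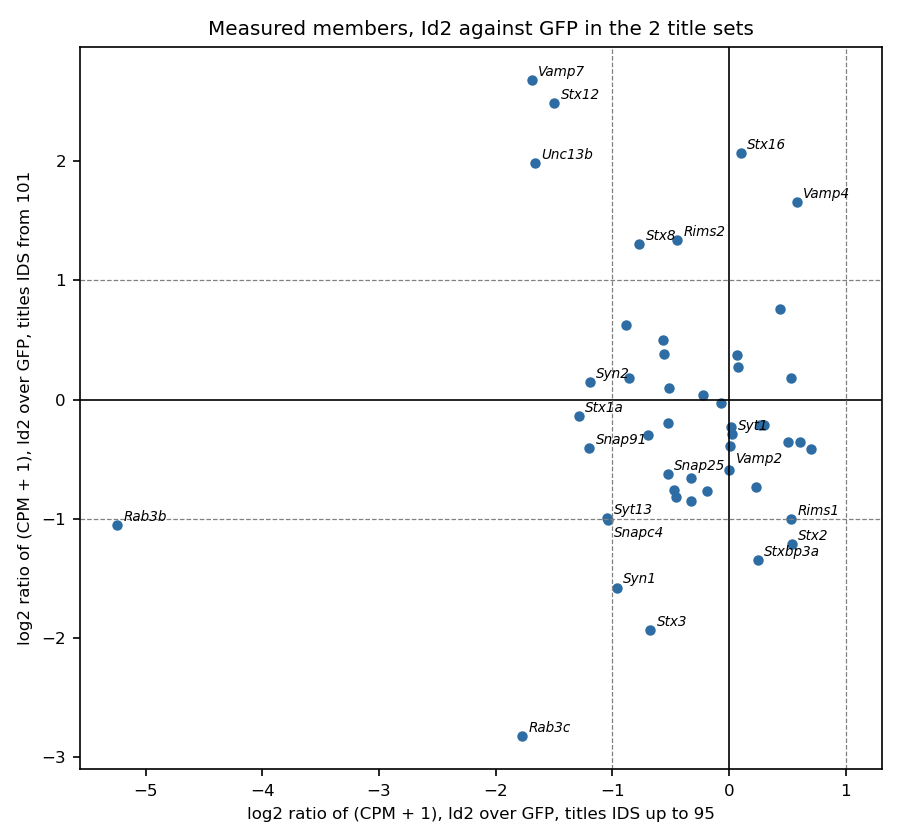
Log2 ratio of (CPM + 1) of Id2 over GFP cells for the 48 measured members, in the cells with titles IDS up to 95 (horizontal axis) and above 95 (vertical axis), with dashed lines at 2-fold. Rab3b, Rab3c and Snapc4 are at least 2-fold lower in both sets, no member is 2-fold higher in both, and 25 of 48 have opposite signs. No such counts are given for all genes. With titles above 95, Rab3b is under 5 CPM in both Id2 and GFP cells.

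The title sets of Id2 and GFP cells share no cells and can be set side by side. Within each set Id2 and GFP cells carry separate runs of title numbers, so a possible batch there cannot be told apart from the virus given. Of the 48 members, 17 lay below 0 in both, 6 above 0 in both and 25 on opposite sides, with no such count given for all genes. The sets held 43 Id2 and 43 GFP cells with titles up to 95, and 28 Id2 and 16 GFP cells with titles above 95. Unc13b had a ratio of -1.66 in the first and 1.99 in the second, Stx12 of -1.50 and 2.49, and Vamp7 of -1.69 and 2.68, while Snap25 had -0.52 and -0.62 and Cplx2 -0.45 and -0.82. Of the other release genes, 2 of 38 were at least 2-fold higher and 3 lower with Id2, beside 10.2% and 12.6% of all measured genes, among them Scamp5, a secretory carrier membrane protein, at 63.5 CPM against 196 CPM. Of the retrieval genes, 1 of 27 was higher and 3 lower. Dnm3, a neuronal dynamin, was at 66.9 CPM in Id2 cells and 20.7 CPM in GFP cells, and Eps15, an endocytic adaptor, at 13.8 CPM against 53.8 CPM.

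GFP cells against control cells showed how far the groups lie apart without kainate or Id2. Of 50 measured members, 7 were at least 2-fold higher and 7 at least 2-fold lower in GFP cells, or 14.0% each, beside 19.3% and 13% of all 8085 genes measured, and the median log2 ratio was 0.15 for members and 0.13 for all genes. Syt17, a calcium-independent synaptotagmin, was at 126.4 CPM (124.9 to 127.9) in GFP cells and 25.04 CPM (23.9 to 26.3) in control cells, 5.05-fold higher, and at 107.9 CPM in Id2 cells. Its highest GFP cell had 934 CPM and its highest control cell 234 CPM, with the median at 0 in both. Vamp8, Snap23 and Rims1 were lower, with 2.52, 8.43 and 41.9 CPM in GFP cells against 61.7, 98.5 and 121.8 CPM in control cells. Microglia markers summed to 173 CPM in GFP cells against 3791 CPM in control cells. Without the cells rich in them, Vamp8 was at 2.55 CPM in GFP cells and 23.3 CPM in control cells. Snap23 was then at 8.53 and 33.6 CPM, and Rims1 at 42.4 and 207 CPM, so Rims1 in control cells was higher and the other genes lower. The part of these cells in the ratios was not tested. Stx1a was at 38.99 CPM in GFP cells against 81.5 CPM in control cells. This comparison joins virus, surgery and title series, which cannot be told apart.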

How the data were processed

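Whole-number counts per gene were used as deposited by the authors for 291 of 304 labelled samples, the other 13 having no column used here. A companion table with the deposited counts of 252 cells scaled by 1 factor per cell (0.187 to 287), treated as a signal, entered only an alternative. The table names read the other way round, and the units were settled from the values. Trimmomatic, STAR, featureCounts and GRCm38 were used per the submitters' processing notes, with no version or strand setting named in those notes. The 248 cells labelled Passed in the 5 groups were kept, and 39 Failed cells, 2 cells of the opposite side and 2 low_DG libraries (Pearson r of 0.997 and 0.998 of log2(CPM + 1) with a control cell of the same title number, against at most 0.755 between any 2 cells used) were left out. Each library holds 1 cell and no barcodes.

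Counts were summed per group and scaled to CPM, and differences are log2 ratios of (CPM + 1), which understate the change of low genes. They were set over all genes, and calls at 2-fold carry no test. The median over all measured genes was 0.17 (day 1), 0.14 (day 14), -0.02 (day 14 over day 1), -0.10 (Id2 over GFP) and 0.13 (GFP over control). Exact Poisson intervals (95%) cover counting error only, and PCR reads without molecular identifiers are not independent molecules. Clopper-Pearson intervals (95%) treat the cells of a group as independent draws. They leave out differences between animals, which the labels do not name. Members and lists were chosen with earlier results of these data known. Results for 2 members are not reported here. Named were the other core genes and up to 8 measured members each way with ratios of 1 sign from sums, means over cells and thinned counts (100000 reads, seed 20), and other members by what they encode. Microglia-rich means at least 1000 CPM of the 14 markers. Alternatives were pseudocounts of 0.1 and 5 CPM, no filter or one of 50% of cells and 20 CPM, other scalings, depth limits, other control cells, title sets, adding Failed cells, and leaving out microglia-rich cells or the highest cell. A call said to hold in every alternative was not judged under the 2 changes of filter. Rims4, Stx17, Syt12 and, at day 1, Syt3 do not pass the stricter filter. Lengths are exon unions of GENCODE M21, and windows are from RefSeq (GRCm38.p6). The steps were also run on simulated counts with known folds. These modelled no animals or batches, so they say nothing about how sure the 2-fold calls are. Python 3.11.15, numpy 2.4.6, pandas 2.3.3, scipy 1.17.1 and matplotlib 3.10.9 were used.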

Additional observations from a re-analysis of the deposited data

Results flagged for a closer look

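Syt4, Syt3 and Vamp8 lay on opposite sides of their control level at the 2 times after kainate, and the difference between the times was not tested. Syt4 had a log2 ratio of 1.80 at day 1 and -0.92 at day 14 against control cells, and -2.72 for day 14 over day 1. Syt3 had -3.16 at day 1 and 0.39 at day 14, and 3.55 for day 14 over day 1. Vamp8 had -3.02 at day 1 and 0.38 at day 14, and 3.40 for day 14 over day 1, with microglia markers at 783 CPM in day 1 cells, 6791 CPM in day 14 cells and 3791 CPM in control cells.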

How the results depend on the processing

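For the named members, 13 of 1019 alternative values of a ratio of at least 2-fold had the opposite sign, and 88 of 818 of a smaller ratio. Outside the counting interval of the value given lay 660 of the 1019 and 528 of the 818. Of the ratios of at least 2-fold that changed sign, at day 1 Syn3 was at -0.25 with Failed cells, Vamp8 at 1.14 and Snap23 at 1.10 with GFP cells as controls, Snap23 at 0.26 with J-titled controls and Vamp3 at 1.69 with the other controls. At day 14, Rims2 was at -0.41 and Snap23 at 1.29 with GFP cells as controls, Snap23 at 0.45 with J-titled controls, Snapc2 at 0.075 with the other controls and Syt16 at 0.41 without microglia-rich cells. For day 14 over day 1, Vamp8 was at -1.80 without microglia-rich cells. For GFP over control, Stx8 was at -0.0095 with Failed cells and Unc13b at 4.11 with controls of other titles. The counts of members at least 2-fold apart were within 1.5 times in 140 settings and outside in 30. Shares over all genes are given for the main setting only. The counts below therefore have no background beside them and do not set the family apart from other genes. With no filter on low values there were 18 higher and 13 lower at day 1, 8 and 8 for Id2 over GFP, and 13 and 11 for GFP over control. With the stricter filter, which tests fewer genes, there were 5 and 2 at day 1, 5 and 2 at day 14, 5 lower for day 14 over day 1, 2 lower for Id2, and 3 and 2 for GFP over control. Without the highest cell of each gene there were 17 higher at day 1 and 11 higher for GFP over control. Without microglia-rich cells 5 were lower at day 1, and against GFP cells 12 were lower at day 14. For Id2 over GFP, 1 member was higher with means over cells, with the scaled table, thinned, without the deepest 10% of cells, with Failed cells or without microglia-rich cells, 2 were lower when thinned, 2 were higher and 9 lower with titles up to 95, and 8 were higher with titles above 95. For GFP over control, 4 were higher with Failed cells and 12 with controls of other titles. The cause of the other shifts was not tested. No paired analysis was possible because the labels give no animal and no replicate number and no test was run. Control cells were the shallowest, so low members are the least certain there.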
